A study of Homo sapiens with 8 samples.

Results

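The genes described are those of the amino acid transporter families SLC1, SLC3, SLC6, SLC7, SLC36, SLC38 and SLC43, chosen by symbol alone from a table of 63816 gene entries. The families gave 61 entries and 59 symbols, and where a symbol stood on 2 entries the one with the higher mean was taken. RNA was sequenced from cells labelled Caco-2, a human colorectal adenocarcinoma line. They were stably transfected with the plasmid pcDNA3.1, either empty (empty vector, 4 samples) or carrying full-length SIGLEC12, which encodes Siglec-XII (Siglec-XII, 4 samples). Both groups had passed through transfection and selection with G418, and each group stems from its own selected population, so a difference between the populations and an effect of Siglec-XII cannot be told apart. The series text speaks of stable clones and the methods of the study of technical replicate libraries, so p-values measure the spread between these samples, which may be technical. Levels are in TPM (transcripts per 1000000 transcripts), which corrects for transcript length and is relative to all other RNA of a sample, or in log2(TPM + 1) as deposited.

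Amino acids cross membranes through carrier proteins, many of them in these families. The SLC7 light chains do the transport in a heteromeric carrier and depend on an SLC3 heavy chain to reach the plasma membrane. SLC1 and SLC38 carriers use ion gradients to load cells with glutamate, glutamine and small neutral amino acids, and the exchangers SLC1A5 and SLC7A5 trade these for essential amino acids, which signal to the growth kinase mTORC1. In the gut, SLC6A19 and the pair SLC3A1 and SLC7A9 absorb amino acids at the brush border, and SLC7A7 and SLC7A8, both with SLC3A2, release them on the blood side.

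The labels were checked on the transfected gene, SIGLEC12, whose log2 levels were 0.11 ± 0.05 in the empty vector samples and 10.70 ± 0.06 in the Siglec-XII samples (SD, n = 4 each). Of 13 markers of intestinal epithelium, only CDX1 (128 to 165 TPM) and CDX2 (34.0 to 48.8 TPM), both intestinal transcription factors, passed the filter described next, 9 stayed under 1 TPM in every sample, and FABP1, KRT20 and SI were listed at 0 throughout. HNF4A, a transcription factor of enterocytes, reached at most 0.174 TPM. Of 14 trophoblast markers 11 passed. The 14 summed to 1190 to 1310 TPM with the empty vector and 1180 to 1260 TPM with Siglec-XII. GATA3, HSD3B1, VGLL1 and TFAP2C were each above 150 TPM in every sample. Other markers of this list were low. CGA, PSG1, PSG4 and ERVW-1, which passed, reached at most 1.35, 2.42, 1.57 and 1.59 TPM, and CYP19A1 at most 7.29 TPM. CGB5, GCM1 and LEP stayed under 1 TPM in every sample. Fibroblast markers summed to between 70.8 and 89.2 TPM and leukocyte markers to between 2.06 and 3.71 TPM over all samples. In both groups, then, most intestinal markers were near 0. Most trophoblast markers passed, but several of them only at low levels. These levels are unlike those of intestinal epithelium, although the labels name Caco-2, and the identity of the cells was not tested further. The intestinal markers summed to between 163 and 186 TPM with the empty vector and between 190 and 215 TPM with Siglec-XII. CDX1 and CDX2 held most of that sum, and the groups overlapped for each of them. In the limma comparison described next their log2 fold changes were 0.17 and 0.23. The unadjusted p was 0.0154 and 0.0303, and the adjusted p was 0.202 and 0.252. The part of any such difference in the results for the transporters was not tested.

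Groups were compared with limma over 15590 entries, those with 1 TPM or more in 4 or more samples, and an entry was called at a Benjamini-Hochberg adjusted p under 0.05 over all of them. Of the 59 transporter genes 29 passed this filter and 30 did not. With Siglec-XII, SLC7A8 rose and was the only transporter gene called, 1.42-fold on the log2(TPM + 1) scale. Of the 29 genes, 1 (3.45%) was called, where 0.648% of all tested entries were. At an unadjusted p of up to 0.05 there were 15 genes with SLC7A8 included, all with the higher mean with Siglec-XII. They made up 51.7% of the tested transporter genes, where 13.9% of all tested entries (15.9% of protein-coding ones) passed this limit in that direction and 2.61% in the other. In 9 genes (31.0%) every Siglec-XII sample lay above every empty vector sample, against 9.17% of all tested entries (10.6% of protein-coding ones), and in 0 genes below. The median log2 fold change was 0.19 over the 29 genes and 0.07 over all tested entries, 27 of the 29 had the higher mean with Siglec-XII, and 68.1% of all entries (71% of protein-coding ones) did. These counts, and the background with them, were smaller under other scalings. With quantile normalization 10 of 29 genes passed the unadjusted limit, against 7.02% of all entries in that direction, with medians of 0.14 and 0.01, and with equal upper quartiles 10 of 29 did, against 7.20%, with medians of 0.13 and 0.01. The median length of the transcript named in an entry was 3744.5 nt for the tested transporter genes with a length. It was 2483.5 nt for tested protein-coding entries. With the trend of fold change against length removed, 7 of 28 genes passed this limit, against 6.60% of all entries in that direction. The medians were then 0.09 and 0.01. In that fit 5 genes did not overlap, a count for which no share over all entries was computed.

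**Figure D1:**
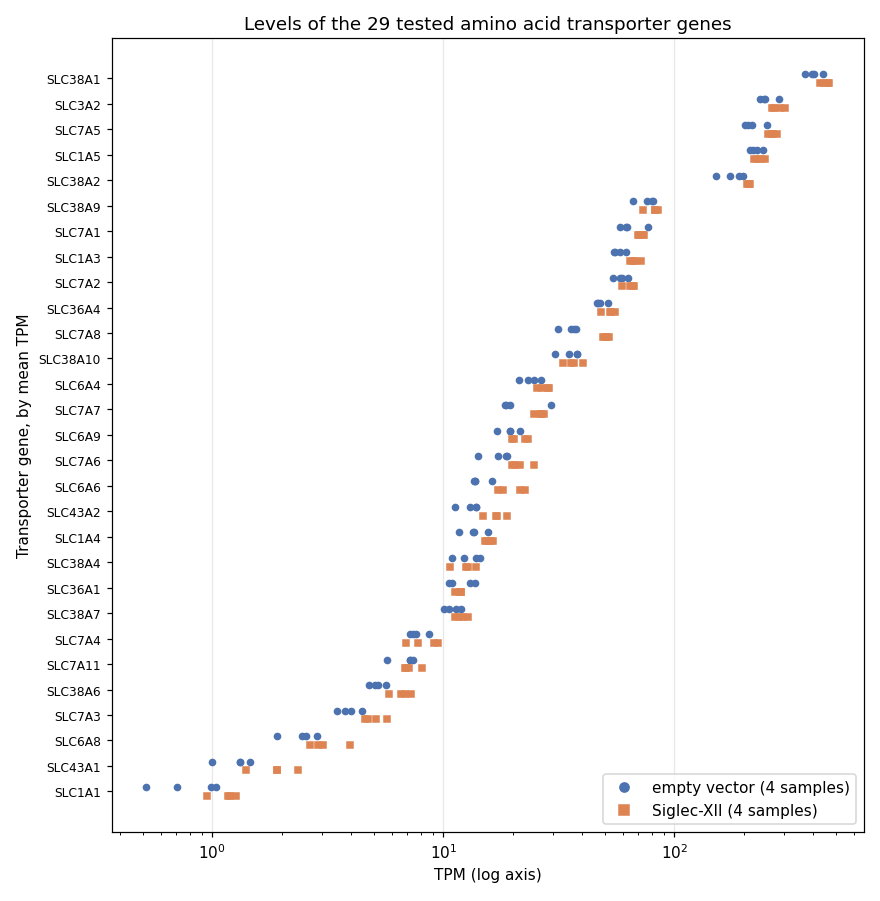
TPM in each sample (log axis) for the 29 transporter genes that passed the filter, ordered by mean level, with circles for the 4 empty vector and squares for the 4 Siglec-XII samples. SLC38A1, SLC3A2, SLC7A5, SLC1A5 and SLC38A2 stand above 100 TPM in every sample, and only for some genes, such as SLC7A8, do the symbols of the groups stand apart.

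A few carriers held most of the transporter RNA. The 59 genes summed to between 1710 and 2150 TPM per sample, and the 5 most abundant of them, SLC38A1, SLC3A2, SLC7A5, SLC1A5 and SLC38A2, took 68.6% to 69.6% of that in every sample. The proteins of these genes are known to supply glutamine (SLC38A1, SLC38A2, SLC1A5) and to exchange it for leucine and other large neutral amino acids (SLC7A5 with SLC3A2). Only RNA was measured here, not transport. Of the 59 genes 22 were above 10 TPM in every sample, 26 of the 30 genes below the filter were under 1 TPM in every sample, and SLC6A5, SLC6A18 and SLC7A10 were listed at 0 in all samples.

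The heavy chain SLC3A2 (CD98 heavy chain, ENSG00000168003, chromosome 11, 62623476 to 62656352, plus strand, GRCh37) had 244, 285, 248 and 234 TPM in empty vector replicates 1 to 4 and 271, 287, 266 and 302 TPM in Siglec-XII replicates 1 to 4. The groups overlapped, through empty vector replicate 2. The log2 fold change was 0.16 (SE 0.07, unadjusted p = 0.0446, limma adjusted p = 0.291). The other heavy chain, SLC3A1, which pairs with SLC7A9 in brush border, stayed at or under 0.403 TPM in every sample, and SLC7A9 was on average 0.0700 TPM with the empty vector and 0.117 TPM with Siglec-XII.

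There were 8 light chains, of which 5 passed the filter, all with the higher mean with Siglec-XII, and the unadjusted p was up to 0.05 for 4 of them. SLC7A8 (LAT2, a carrier of small and large neutral amino acids, ENSG00000092068, chromosome 14, 23594504 to 23652883, minus strand) had 36.9, 35.9, 37.6 and 31.5 TPM with the empty vector and 52.2, 49.1, 51.1 and 50.4 TPM with Siglec-XII. The groups did not overlap, and the lowest Siglec-XII sample lay further above the highest empty vector sample than the empty vector samples lay apart from each other. On the log2 scale SLC7A8 went from 5.19 ± 0.11 to 5.69 ± 0.04 (SD, n = 4), a difference of 0.51 (SE 0.06, 95% interval 0.37 to 0.65, unadjusted p = 1.44e-05, limma adjusted p = 0.00590). It was called under all 18 alternatives of the processing, with adjusted p from 0.00376 to 0.0278 and log2 fold changes from 0.44 to 0.53.

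SLC7A5 (LAT1, the main importer of leucine and other large neutral amino acids in growing cells, ENSG00000103257, chromosome 16, 87863629 to 87903113, minus strand) had 208, 252, 217 and 202 TPM with the empty vector and 255, 265, 267 and 279 TPM with Siglec-XII. The groups did not overlap, but empty vector replicate 2 lay close to the lowest Siglec-XII sample. The log2 fold change of 0.28 (SE 0.07, 95% interval 0.13 to 0.44) had an adjusted p of 0.109 with limma. Without empty vector replicate 2 it was 0.35 with an adjusted p of 0.0220. SLC7A7 (y+LAT1, which exports cationic amino acids in exchange for neutral ones) had 18.7, 29.2, 19.5 and 18.6 TPM against 26.6, 26.4, 24.8 and 27.4 TPM. Here too empty vector replicate 2 stood out, as the highest of all 8 samples, and the log2 fold change of 0.30 (adjusted p = 0.291) became 0.45 (adjusted p = 0.0207) without that sample.

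SLC7A6 (y+LAT2, another exchanger of cationic and neutral amino acids) had 17.2, 18.7, 18.9 and 14.1 TPM with the empty vector and 21.5, 19.8, 20.5 and 24.6 TPM with Siglec-XII. The groups did not overlap, and the limma adjusted p was 0.194 (log2 fold change 0.31, SE 0.10). SLC7A11 (xCT, which takes up cystine for glutathione) stood at 6.88 ± 0.767 and 7.24 ± 0.563 TPM (SD, n = 4), and the interval of its log2 fold change ran from -0.15 to 0.29. Of the summed TPM of the light chains that join SLC3A2, SLC7A5 took 73% ± 0.698 and 71.6% ± 0.800 (SD, n = 4), and SLC7A8 took 11.8% ± 1.08 and 13.6% ± 0.623. The level of SLC3A2 divided by that sum was between 0.826 and 0.856 in the empty vector samples and between 0.716 and 0.780 in the Siglec-XII samples. These ratios are given as a description, with no test.

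The promoters of the called gene, of its abundant relative and of their shared heavy chain are shown so that their letters can be compared. RefSeq's table (GRCh38.p14) held a promoter for 44 of the 59 genes, and 24 of these had been tested. Shown are the 250 bases before the RefSeq start, placed by exact match on GRCh37 at chr14:23624530-23624779 (SLC7A8, minus strand), chr16:87903114-87903363 (SLC7A5, minus strand) and chr11:62648921-62649170 (SLC3A2, plus strand). The starts used for SLC7A8 and SLC3A2 lie inside the annotated genes, which begin further upstream. Capitals mark matches to CACGTG, the E-box bound by MYC and related factors, TGATGNAA, the core of the amino acid response element bound by ATF4, or TGACNNNGC, the core of the antioxidant response element bound by NRF2, each sought on both strands.
SLC7A8: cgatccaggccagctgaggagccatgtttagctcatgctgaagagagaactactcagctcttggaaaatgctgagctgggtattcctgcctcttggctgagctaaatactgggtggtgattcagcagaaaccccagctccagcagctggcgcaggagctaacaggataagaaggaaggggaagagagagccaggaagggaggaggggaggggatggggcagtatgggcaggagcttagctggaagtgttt
SLC7A5: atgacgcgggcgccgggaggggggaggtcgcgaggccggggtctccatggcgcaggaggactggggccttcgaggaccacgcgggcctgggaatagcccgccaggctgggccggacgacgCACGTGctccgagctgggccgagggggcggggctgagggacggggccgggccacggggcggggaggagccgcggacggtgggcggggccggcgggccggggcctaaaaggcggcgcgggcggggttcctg
SLC3A2: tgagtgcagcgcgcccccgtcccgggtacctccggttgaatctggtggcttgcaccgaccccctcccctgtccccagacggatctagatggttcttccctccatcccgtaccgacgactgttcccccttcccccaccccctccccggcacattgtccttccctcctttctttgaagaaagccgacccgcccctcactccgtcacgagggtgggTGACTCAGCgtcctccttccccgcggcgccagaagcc

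The SLC7A5 stretch held 34 CpG pairs at a GC content of 79.6% and a CACGTG that begins 130 bases before the start. The SLC3A2 stretch held 19 CpG pairs and TGACTCAGC, a match to TGACNNNGC, 37 bases before the start. The SLC7A8 stretch had only 2 CpG pairs at a GC content of 54.8% and held none of the 3 motifs, which says only that these letters are not in this window. In the 300-base windows of RefSeq, which run past the start, CACGTG was found for 3 of the 24 tested genes and 7.43% of all 27305 promoters. TGATGNAA was found for 4 tested genes (SLC1A3, SLC38A1, SLC3A2 and SLC7A1) and 3.67% of all, and TGACNNNGC for 5 and 13.6%. A match is not a site shown to be bound.

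**Figure D2:**
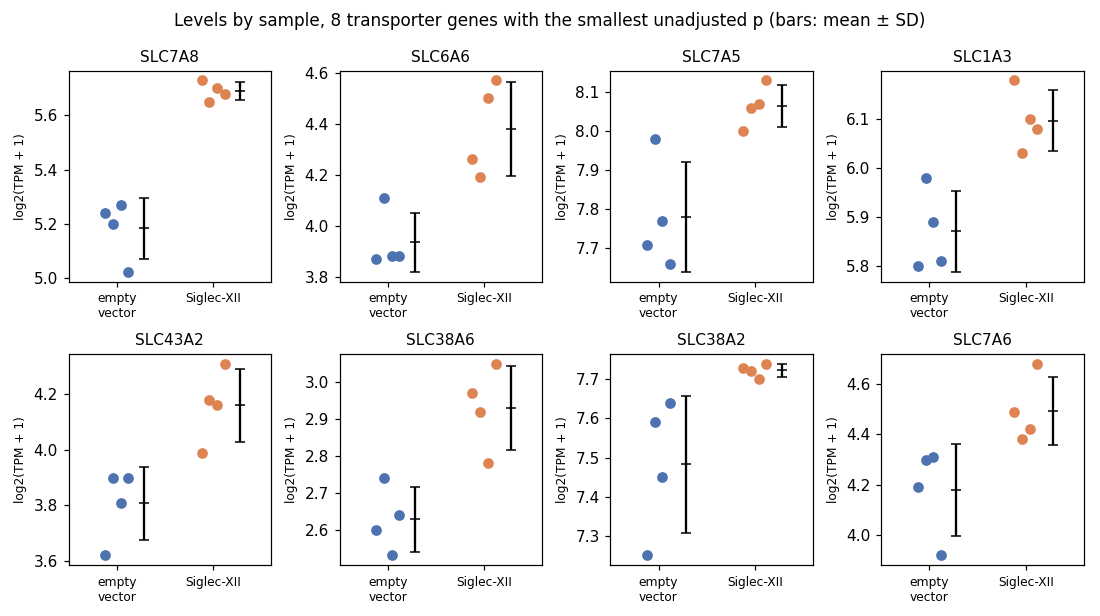
log2(TPM + 1) in each sample for the 8 transporter genes with the smallest unadjusted p, with the mean and SD of each group beside the points, each panel on an axis of its own that does not start at 0. In all 8 panels every Siglec-XII sample lies above every empty vector sample, with the widest gap for SLC7A8.

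The cationic amino acid carriers take up arginine and lysine without a heavy chain. SLC7A1 (CAT1) had 62.2, 77.1, 62.0 and 58.4 TPM with the empty vector and 74.1, 69.7, 70.6 and 73.5 TPM with Siglec-XII. Empty vector replicate 2 was the highest of all 8 samples and the other 3 empty vector samples were the lowest, with a log2 fold change of 0.15 (SE 0.08, 95% interval -0.03 to 0.33, limma adjusted p = 0.371). SLC7A2 (CAT2) had 58.8 ± 3.52 and 64.2 ± 3.24 TPM and SLC7A4 had 7.72 ± 0.684 and 8.34 ± 1.22 TPM (SD, n = 4). Their groups overlapped, and the intervals of their log2 fold changes included 0. SLC7A3 (CAT3) was low, at 3.98, 4.47, 3.76 and 3.46 TPM against 5.11, 4.59, 4.73 and 5.74 TPM, without overlap. Its log2 fold change was 0.30 (SE 0.11, limma adjusted p = 0.218). SLC7A14, a lysosomal relative, did not pass the filter and reached at most 0.885 TPM.

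Of the SLC1 glutamate carriers, SLC1A3 (EAAT1, ENSG00000079215, chromosome 5, 36596690 to 36688436, plus strand) was by far the most abundant, at 54.9, 62.1, 58.3 and 55.3 TPM with the empty vector and 71.6, 64.5, 67.6 and 66.6 TPM with Siglec-XII. The groups did not overlap, and the log2 fold change of 0.23 (SE 0.06, 95% interval 0.10 to 0.35) had a limma adjusted p of 0.109. SLC1A1 (EAAT3), the glutamate carrier of gut and kidney epithelium, barely passed the filter at 0.813 ± 0.246 and 1.15 ± 0.141 TPM (SD, n = 4). SLC1A2, SLC1A6 and SLC1A7, known from the nervous system and retina, did not pass. Of the neutral amino acid exchangers of the same family, SLC1A5 (ASCT2, a glutamine exchanger) had 213, 241, 228 and 220 TPM against 229, 238, 221 and 246 TPM. Its samples were mixed between groups, with a log2 fold change of 0.05 (SE 0.05, 95% interval -0.07 to 0.17, limma adjusted p = 0.672). SLC1A4 (ASCT1, an exchanger of serine and alanine) had 13.6 ± 1.62 and 15.8 ± 0.607 TPM (SD, n = 4 each, limma adjusted p = 0.268).

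The SLC38 family was the largest pool of transporter RNA, at 722 ± 60.3 TPM with the empty vector and 811 ± 22.1 TPM with Siglec-XII (SD, n = 4). SLC38A1 (SNAT1, a sodium-coupled carrier of glutamine, ENSG00000111371, chromosome 12, 46576846 to 46663800, minus strand) had 369, 440, 395 and 404 TPM against 469, 427, 461 and 446 TPM. Here empty vector replicate 2 exceeded Siglec-XII replicate 2, and the log2 fold change was 0.17 (SE 0.06, limma adjusted p = 0.210). SLC38A2 (SNAT2, the carrier that cells raise when amino acids run short, ENSG00000134294, chromosome 12, 46751971 to 46766556, minus strand) had 151, 191, 174 and 198 TPM against 211, 210, 207 and 213 TPM. The groups did not overlap, the Siglec-XII samples were close together, and the log2 fold change was 0.24 (SE 0.08, limma adjusted p = 0.183).

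SLC38A9, the lysosomal arginine sensor that reports to mTORC1, had 66.0, 80.3, 76.2 and 80.9 TPM against 82.9, 73.3, 85.1 and 82.3 TPM. The groups overlapped, and the log2 fold change was 0.09 (SE 0.08, 95% interval -0.07 to 0.26, limma adjusted p = 0.564). SLC38A6 was low, at 5.05, 5.68, 4.78 and 5.24 TPM against 6.81, 6.55, 5.85 and 7.29 TPM. Its groups did not overlap, and its log2 fold change was 0.30 (SE 0.09, limma adjusted p = 0.173). SLC38A7 (a lysosomal exporter of glutamine) and SLC38A10 had intervals that included 0, from -0.06 to 0.29 and from -0.15 to 0.23. SLC38A4 (SNAT4, a carrier of liver and placenta, imprinted in mouse) was 1 of 2 tested genes with the lower mean with Siglec-XII, at 12.9 ± 1.6 and 12.5 ± 1.32 TPM (SD, n = 4, limma adjusted p = 0.887). SLC38A3, SLC38A5, SLC38A8 and SLC38A11 did not pass the filter. SLC38A5 stood at 0.908 TPM in Siglec-XII replicate 1 and at or under 0.291 TPM in the other 7 samples.

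Some SLC36 carriers, such as SLC36A1, move small amino acids with protons, in part out of lysosomes. SLC36A4 (PAT4) had 48.0 ± 2.50 and 52.3 ± 3.10 TPM and SLC36A1 (PAT1) 12.1 ± 1.6 and 11.8 ± 0.332 TPM (SD, n = 4), the intervals of both fold changes included 0, and SLC36A2 and SLC36A3 did not pass the filter. SLC43 carriers are facilitators of large neutral amino acids. SLC43A1 (LAT3) was near 1 TPM, with 1.0, 1.32, 1.46 and 1.32 TPM against 1.91, 1.40, 2.36 and 1.91 TPM. The groups overlapped by 1 sample pair, and the limma adjusted p was 0.282. SLC43A3, an adenine transporter, was at or near 0 TPM with the empty vector and averaged 0.191 TPM with Siglec-XII.

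SLC43A2 (LAT4) stood on 2 entries of the table, with unlike values. The entry that entered the counts, ENSG00000278550, has no position in the GRCh37 annotation used, and had 11.3, 13.9, 13.0 and 13.9 TPM with the empty vector and 14.9, 17.1, 16.9 and 18.9 TPM with Siglec-XII. These groups did not overlap, with a log2 fold change of 0.35 (SE 0.09, limma adjusted p = 0.123). The other entry, ENSG00000167703 (chromosome 17, 1472562 to 1532180, minus strand), had 5.01, 5.37, 4.60 and 4.22 TPM against 4.97, 5.32, 4.23 and 4.97 TPM, a log2 fold change of 0.02. Reads of the same gene can be divided between such entries, so each value is uncertain. Summed over both entries, the log2 level was 4.23 ± 0.09 in empty vector and 4.51 ± 0.11 in Siglec-XII samples (SD, n = 4 each). No sample of one group reached into the other. This alone fixes the p of a two-sided exact permutation test at 0.0286, the lowest it can take with these group sizes. Of all tested entries 10.8% had no overlap either, in one direction or the other. The p is unadjusted and adds nothing to the lack of overlap.

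**Figure D3:**
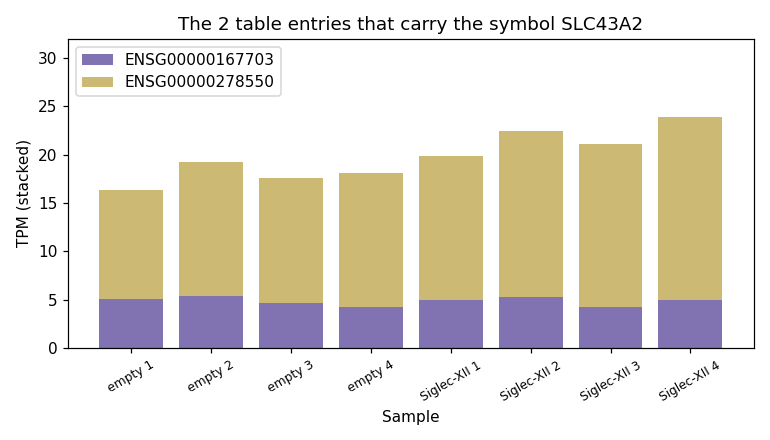
TPM of both entries that carry the symbol SLC43A2, stacked, in each of the 8 samples (bars start at 0). The lower segment, ENSG00000167703, stays between 4.22 and 5.37 TPM, and the upper segment, ENSG00000278550, runs from 11.3 to 13.9 TPM with the empty vector and from 14.9 to 18.9 TPM with Siglec-XII.

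The SLC6 family uses sodium and chloride gradients, and its members carry neurotransmitters, taurine, creatine and neutral amino acids. SLC6A6 (TauT, the taurine transporter, ENSG00000131389, chromosome 3, 14444076 to 14530857, plus strand) had 13.6, 16.2, 13.8 and 13.8 TPM with the empty vector and 18.1, 17.3, 21.6 and 22.7 TPM with Siglec-XII. The groups did not overlap, and after SLC7A8 it had the highest log2 fold change of the 29 genes, 0.44 (SE 0.10, 95% interval 0.22 to 0.67), with a limma adjusted p of 0.0978. SLC6A4 (SERT, the serotonin transporter, known in gut epithelium and placenta as well as neurons) was well above the filter at 24.0 ± 2.24 and 27.4 ± 1.55 TPM (SD, n = 4 each, limma adjusted p = 0.268). SLC6A9 (GlyT1, a glycine transporter) had 19.3 ± 1.74 and 21.5 ± 1.66 TPM and SLC6A8 (the creatine transporter) 2.43 ± 0.395 and 3.12 ± 0.571 TPM (SD, n = 4), and both intervals of the log2 fold change included 0.

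The remaining 15 SLC6 genes did not pass the filter. Among them were all the SLC6 carriers of gut absorption: SLC6A19 (B0AT1) averaged 0.0696 and 0.0620 TPM, SLC6A20 averaged 0.122 and 0.0649 TPM, and SLC6A14 averaged 0.00307 and 0.0161 TPM, each given as the empty vector mean and then the Siglec-XII mean. SLC6A16 was at or under 0.542 TPM in 7 samples and at 1.70 TPM in Siglec-XII replicate 3, the highest value of any transporter gene below the filter. Of a list of 12 amino acid carriers known from enterocytes, 6 passed the filter (SLC7A7, SLC7A8, SLC3A2, SLC1A1, SLC36A1 and SLC43A2). The 6 others stayed under 1 TPM in every sample. Of the 6 that passed, 1 was called, SLC7A8. For 4 of them, SLC7A8 included, the unadjusted p was up to 0.05, all with the higher mean with Siglec-XII. Of all tested entries 0.648% were called, and 13.9% were higher at the unadjusted limit. All genes of this list are transporter genes already counted above, so these counts are not a separate result.

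**Figure D4:**
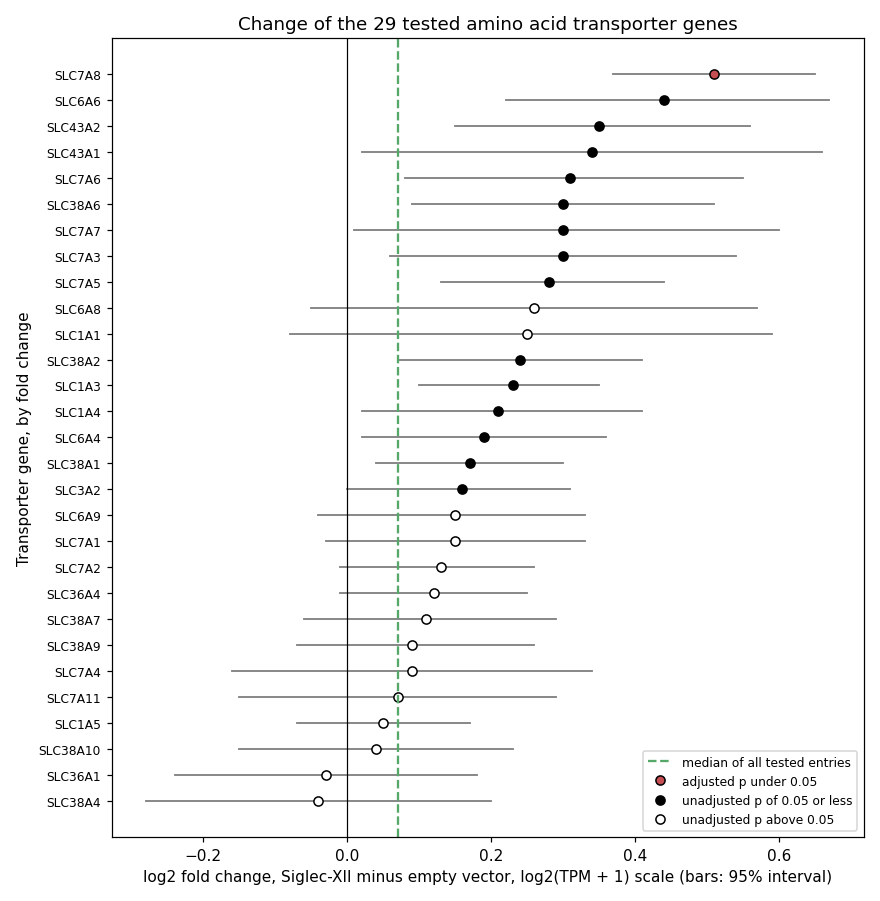
log2 fold change of the 29 tested transporter genes, Siglec-XII minus empty vector on the log2(TPM + 1) scale, with 95% intervals from limma; the dashed line is the median of all tested entries, 0.07. SLC7A8 alone has an adjusted p under 0.05, and 27 of the 29 points lie right of 0.

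Cells that lack amino acids raise transporters through the kinase GCN2 and the factor ATF4, so the known target genes of this response were read beside the transporters. Of 28 ATF4 response genes 26 were tested, with 14 higher, 12 lower, 0 called with limma, 2 higher and 3 lower at an unadjusted p of up to 0.05, and a median log2 fold change of 0.01. Of all tested entries 13.9% were higher and 2.61% lower at this limit. ASNS (asparagine synthetase) had 86.9, 95.8, 96.9 and 94.6 TPM against 93.0, 88.6, 95.5 and 98.9 TPM, the groups mixed. DDIT4 (an inhibitor of mTORC1) was the gene with the smallest p, with 25.0, 28.5, 27.8 and 25.3 TPM against 22.1, 21.3, 21.8 and 22.8 TPM, lower in every Siglec-XII sample (log2 fold change -0.26, limma adjusted p = 0.103). The other 2 lower genes, PHGDH (serine synthesis, -0.17, limma adjusted p = 0.165) and MTHFD2 (mitochondrial folate metabolism, -0.18, limma adjusted p = 0.172), were also lower in every Siglec-XII sample. VLDLR (a lipoprotein receptor) had a log2 fold change of 0.40 and an adjusted p of 0.155 with limma. Of the 26 tested genes of this list 4 had no overlap between groups, in one direction or the other. Of all tested entries 10.8% had none, and 9.17% had none with Siglec-XII higher.

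The other lists of the pathway also had 0 called genes with limma. Of 34 genes of amino acid sensing by mTORC1, all tested, 6 were higher and 0 lower at an unadjusted p of up to 0.05, with a median log2 fold change of 0.05. FNIP2, a partner of folliculin, had 6.90, 8.63, 8.83 and 8.46 TPM against 11.5, 11.2, 11.6 and 12 TPM (log2 fold change 0.46, limma adjusted p = 0.0586), and RRAGC, a Rag GTPase, had 31.8, 36.1, 32.9 and 34.2 TPM against 42.1, 38.6, 45.2 and 41.3 TPM (0.30, limma adjusted p = 0.0860). Both were higher in every Siglec-XII sample. Of the 34 genes 5 had no overlap between groups, where 10.8% of all tested entries had none. Of 12 genes of the GCN2 branch, related kinases included, 3 were higher and 0 lower at this limit. EIF2S1 (log2 fold change 0.14) and EIF2B2 (0.16), which are not kinases, had the smallest p.

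Of 20 cytosolic aminoacyl-tRNA synthetases, which charge tRNAs with amino acids, 5 were higher and 0 lower at an unadjusted p of up to 0.05, with a median of 0.02 and with WARS (log2 fold change 0.22) and AARS (0.12) having the smallest p. Of 16 tested enzymes of glutamine, glutamate and glutathione 2 were higher and 0 lower, GLUL (glutamine synthetase), at 90.1, 102, 97.7 and 102 TPM against 111, 116, 111 and 123 TPM (limma adjusted p = 0.109), and GLUD1 (glutamate dehydrogenase), with a log2 fold change of 0.20 (limma adjusted p = 0.173). Of 13 tested amino acid carriers outside the 7 families 3 were higher and 0 lower, with log2 fold changes of 0.34 for CTNS (the lysosomal cystine exporter), 0.26 for CLN3 (a lysosomal membrane protein) and 0.11 for SLC25A13 (a mitochondrial aspartate and glutamate carrier). The background for these counts is the same as for the transporters, 13.9% of all tested entries for higher and 2.61% for lower.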

How the data were processed

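RNA-seq was measured in 8 samples labelled Caco-2, sequenced in pairs of 100 bp to a depth, per the labels, of some 25000000 to 40000000 reads each. The labels name a stranded total RNA kit, while the methods of the study name an mRNA kit. The authors quantified reads with kallisto (0.45.0 in the submitters' processing notes) against hg19 and deposited log2(TPM + 1) values per gene entry. Each column summed to 1000000 TPM, so the depth behind a value is unknown, and no interval from counts or count test could be given. The authors' strand setting is not given in the sources used here.

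Groups were taken from the sample titles. Values were used as deposited and fitted with limma 3.58.1 in R 4.3.3 (lmFit, eBayes with a mean-variance trend, two-sided, Benjamini-Hochberg over 15590 entries with 1 TPM or more in at least 4 samples). The step was tested on simulated data. The study's count test could not be used on these values. Single values were compared by exact permutation. Gene positions come from GENCODE lifted to GRCh37 (86.9% of entries matched by gene ID). The transcript named in an entry, used for the length alternative, can be shorter than the main one of the gene. Figures were drawn with matplotlib 3.10.9.

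The transporter families, the gene lists and the tests were chosen with earlier results of these data known. Named are any transporter gene, with full statistics for those called, the 8 with the smallest unadjusted p and the 8 with the highest level, SIGLEC12 and, of each pathway list, the called genes or else the 2 with the smallest p. ASNS, PHGDH, MTHFD2, SLC25A13 and the marker genes were named beside these after their values were seen. Alternatives were another pseudocount, filters, scalings, the replicate block, samples left out, eBayes without the trend, small structured RNAs left out and removal of the length trend.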

Additional observations from a re-analysis of the deposited data

Results flagged for a closer look

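Of 60 sets of 4 samples (29 transporter genes and SIGLEC12 in each group), 3 held a sample whose gap to its nearest neighbour took more of the range than Dixon's 95% limit allows, where chance flags about 1 in 20 sets. SLC7A7 stood at a log2 level of 4.92 in empty vector replicate 2, with the next sample at 4.36. SLC6A6 stood at 4.11 in the same sample, with the next at 3.88. SLC7A11 stood at 2.75 in empty vector replicate 1, with the next at 3.03.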

How the results depend on the processing

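The call of SLC7A8 held under all 18 alternatives. With single samples left out, 1 to 3 transporter genes were called and 9 to 15 did not overlap between groups, and the 3 called without empty vector replicate 2 were SLC7A8, SLC7A5 and SLC7A7. The 15 genes without overlap were reached without that sample and without Siglec-XII replicate 2. Groups of 3 and 4 samples stand apart by chance more readily than groups of 4. The share of all entries without overlap was not computed for the fits with a sample left out, so these counts have no background. The count of the enterocyte list was 1 or 2. The count of all called entries ran from 40 to 154 over these fits, against 101 with all samples, and was 51 with no filter, 54 with eBayes without the trend, 27 with small structured RNAs left out and 67 with the length trend removed. Each sample left out lowered that count by more than 1.5 times, except empty vector replicate 2, without which it was 154. The share of higher calls was 52.5% with all samples and ran from 19.2% (without Siglec-XII replicate 4) to 72.7% (without empty vector replicate 2). It was 29.3% with equal upper quartiles, 32.6% after quantile normalization, 33.3% with abundant entries left out, 41.2% with no filter, 42.6% with eBayes without the trend, 26.1% with the replicate block, 70.4% with small structured RNAs left out and 29.9% with the length trend removed. With the length trend removed, 7 transporter genes passed an unadjusted p of 0.05, 5 did not overlap (no background share computed) and 2 ATF4 response genes were called. With quantile normalization, and likewise with equal upper quartiles, 1 such gene was called, DDIT4 (-0.34 and -0.32), and at a mean of at least 5 TPM 1 gene of mTORC1 sensing, FNIP2. The cause of these shifts was not tested.

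The alternatives were followed for SIGLEC12, the 29 transporter genes and 12 pathway genes, not for ASNS, PHGDH, MTHFD2, SLC25A13 or the cell type markers. Of these, 5 transporter genes changed sign in some fits, by at most 0.05 from 0. SLC38A10 was at -0.03 with quantile normalization, -0.02 with equal upper quartiles, 0.00 with abundant entries left out, -0.05 with the length trend removed, and -0.03 and -0.01 without empty vector replicate 1 and Siglec-XII replicate 4 (-0.03 to 0.09 over all samples left out in turn). SLC36A1 was at 0.01 and 0.03 without empty vector replicates 2 and 3 (range -0.08 to 0.03), and SLC38A4 at 0.01 and 0.03 without empty vector replicate 2 and Siglec-XII replicate 3 (range -0.11 to 0.03). SLC1A5 was at -0.01 with equal upper quartiles and -0.02 with the length trend removed, and SLC7A11 at -0.01 without empty vector replicate 1 (range -0.01 to 0.10) and -0.04 with the length trend removed. The log2 difference of SIGLEC12, 10.59, was 13.20 with a pseudocount of 0.1, and without any 1 Siglec-XII sample the gene failed the filter, which asks for 4 samples, and had no value. SLC43A2 had no length and so no value in the fit without the length trend.

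Samples share replicate numbers between groups, but deviations of same-numbered samples correlated by -0.07 to 0.06, so the numbers do not pair them. With the replicate block 69 entries in all were called and 1 transporter gene, SLC7A8, and 13 transporter genes had an unadjusted p of 0.05 or less. The number of reads behind a value is not known, so how far depth limits the low genes cannot be given.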

Other observations

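Pseudogenes close in sequence to 2 of the transporter genes were read because reads can be divided among copies. SLC7A5P2 (ENSG00000284023) had 8.05 to 12.3 TPM and SLC7A5P1 3.51 to 8.35 TPM over all samples, against 202 to 279 TPM of SLC7A5, and SLC6A10P, a copy of SLC6A8, reached at most 0.0622 TPM. Some carriers have a gene on the opposite strand. SLC7A6OS, opposite SLC7A6, had a mean log2 level of 4.24, TRMT5, opposite SLC38A6, 3.96, and CCDC24, opposite SLC6A9, 3.50. SLC7A8 had 2 overlapping genes, both on its own strand, of which RNU6-1138P was listed at a mean of 0. The other, ENSG00000288931, had no level in these data. Its part in the level of SLC7A8 was not tested.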
